A study of Mus musculus with 3 samples.

Results

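The Gadd45 family comprises Gadd45a, Gadd45b and Gadd45g, 3 of the 32285 genes counted in a droplet single-cell RNA sequencing study of mouse neural stem and progenitor cells. Members were taken by gene symbol, and all 3 were found. Because earlier results of these same data had shown Gadd45 genes to differ, the levels below describe the libraries and are not tests. The cells came from brains of postnatal day 1 mice and were grown as neurospheres with epidermal growth factor, then plated. The 3 groups were a control, bulk electroporation in a Nucleofector, and localized electroporation by 400 pulses of 20 V on the device that carried the cells. All were collected 4 h after treatment. Strain, number of mice and any delivered cargo are not given in the labels, which also do not say on which surface the control cells sat.

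Gadd45 proteins are small acidic proteins without known enzymatic activity. They bind and switch on the kinase Map3k4, which feeds the p38 and JNK stress pathways, and they bind Cdk1, Pcna and the cyclin-dependent kinase inhibitor p21, encoded by Cdkn1a. They also serve as adaptors that bring excision repair enzymes to methylated DNA. Gadd45a is a classical target of p53 and of the stress factors Atf4 and Chop, Gadd45b is known as a target of NF-kB and TGF-beta and as an activity gene of neurons, and Gadd45g marks progenitors leaving the cell cycle for the neuronal lineage.

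Each group had 1 library, so differences between libraries could not be tested or checked in replicates. Cells needed at least 3000 UMIs (unique molecules counted), 500 genes and at most 20% mitochondrial UMIs, which left 6091 control, 5531 bulk and 6298 localized cells with 61775756, 77491732 and 76177026 UMIs. Median depth was 9542 UMIs per cell in control, 11644 in bulk and 10980.5 after localized electroporation, and 0.206% to 0.289% of the cells of a library had a barcode that another library also held. Levels are given in CPM, a gene's UMIs with each library brought to the same total, with exact Poisson intervals, and shares of cells with exact Clopper-Pearson intervals, both at 95%. These cover counting error only. All 9 progenitor markers, among them Nes, Sox2 and Vim, reached 5 CPM in every library, while microglial, endothelial, mural and erythroid markers summed to at most 1.29 CPM in each. Markers of oligodendrocyte precursors summed to 607, 673 and 876 CPM in control, bulk and localized cells, with at least 6 of 7 at 5 CPM or more in each. Those of astrocytes summed to 350, 399 and 750 CPM, with 5, 5 and 7 of 7 at that level. The median mitochondrial share was 3.44%, 4.12% and 3.42%. The part of these differences in the levels of the family was not tested. Just inside the limit, in barcodes of 3000 to 4000 UMIs, Gadd45g stood at 117 CPM in control, 170 CPM (132 to 214) in bulk and 156 CPM (113 to 210) after localized electroporation. Just outside it, at 2000 to 3000 UMIs, it stood at 109, 255 (200 to 320) and 145 CPM. Gadd45b, which was highest in control over all cells, was not highest there near that limit. Just inside it held 10.5, 9.55 and 18.1 CPM in control, bulk and localized electroporation, with overlapping intervals, and just outside 10.6 CPM (2.88 to 27.1), 34.9 CPM (16.7 to 64.2) and 51.3 CPM (26.5 to 89.6), from 4, 10 and 12 UMIs. Gadd45a held 24.4, 21.5 and 3.62 CPM inside and 21.2, 13.96 and 8.54 CPM outside.

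All 3 genes are compact and protein coding, with 4 exons in their longest coding transcript in GENCODE on GRCm38. Gadd45a (ENSMUSG00000036390) lies on chromosome 6, 67035096 to 67037457, minus strand. Gadd45b (ENSMUSG00000015312) lies on chromosome 10, 80930073 to 80932204, and Gadd45g (ENSMUSG00000021453) on chromosome 13, 51846678 to 51848468, both on the plus strand. No other annotated gene overlaps Gadd45b or Gadd45g. E230016M11Rik overlaps Gadd45a on the opposite strand, and it held 2.31 CPM in control, 3.32 in bulk and 2.21 after localized electroporation. Whether counting used strand is not given in the sources used here, so reads of the overlap could not be assigned with certainty.

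Because the family members parted in their levels, their promoters are shown side by side, from RefSeq on GRCm38.p6, each read 5′ to 3′ on the gene's own strand. Each run starts 250 bases before the RefSeq transcript start and ends before the first annotated exon, at chr6:67037458-67037657, chr10:80929841-80930072 and chr13:51846425-51846674. Capitals mark matches to the motifs searched.
Gadd45a: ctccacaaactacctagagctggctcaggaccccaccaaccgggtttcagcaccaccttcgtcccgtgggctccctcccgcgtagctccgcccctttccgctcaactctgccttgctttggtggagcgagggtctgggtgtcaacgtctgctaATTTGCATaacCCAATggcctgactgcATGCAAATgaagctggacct
Gadd45b: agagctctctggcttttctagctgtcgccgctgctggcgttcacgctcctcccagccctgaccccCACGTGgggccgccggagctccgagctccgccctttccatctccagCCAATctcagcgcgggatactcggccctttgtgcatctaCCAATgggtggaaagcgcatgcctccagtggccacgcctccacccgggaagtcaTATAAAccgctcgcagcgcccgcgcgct
Gadd45g: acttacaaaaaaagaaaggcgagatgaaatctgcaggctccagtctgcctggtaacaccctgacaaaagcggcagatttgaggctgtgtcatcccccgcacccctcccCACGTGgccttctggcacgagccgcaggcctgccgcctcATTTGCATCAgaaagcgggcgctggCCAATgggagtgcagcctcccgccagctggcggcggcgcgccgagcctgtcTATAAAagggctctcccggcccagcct

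The 10 motifs were searched on both strands of the 250 bases before the start, for the members and for 32851 promoters in all. The CCAAT box (CCAAT), found in 33.8% of all promoters, was present in all 3 members, with a first base at -86 in Gadd45a, at -139 and -100 in Gadd45b and at -78 in Gadd45g. The octamer ATTTGCAT, found in 1.60% of promoters, was present in Gadd45a at -97 and, on the opposite strand, at -70, and in Gadd45g at -103, but not in Gadd45b. In Gadd45g it overlapped a match to TGATGCAA, a core shared by C/EBP and ATF sites, read on the opposite strand from -101 and found in 0.791% of promoters. A TATA box (TATAAA, 12.4% of promoters) and an E-box (CACGTG, 6.02%) occurred in Gadd45b at -46 and -185 and in Gadd45g at -27 and -142. No member held the cAMP response element TGACGTCA (1.55%), the AP-1 motif TGANTCA (6.75%), GGGNNTTTC as part of the NF-kB motif (3.72%), GAAANNGAA as part of the interferon-stimulated response element (7.13%) or the STAT motif TTCNNNGAA (7.02%) in this window. These are letter matches, not measured sites.

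Gadd45a, the member best known as a DNA damage and stress gene, was highest in control and lower in both electroporated libraries. It had 1556 UMIs in control, 876 in bulk and 622 after localized electroporation, or 25.2 CPM (24.0 to 26.5), 11.3 CPM (10.6 to 12.1) and 8.17 CPM (7.54 to 8.83). The 3 counting intervals did not overlap. The level was 2.23-fold lower in bulk and 3.08-fold lower in localized electroporation than in control, log2 ratios of -1.09 (-1.20 to -0.98) and -1.51 (-1.64 to -1.39) on the log2(CPM + 1) scale used throughout. With each cell thinned to 3000 UMIs, so that depth was equal, 6.78% of control cells held a Gadd45a UMI, 3.58% of bulk cells and 2.49% of localized cells. At full depth these shares were 19.0%, 12.9% and 8.78%. The transcript was spread thinly over cells, with at most 8, 7 and 6 UMIs in any control, bulk or localized cell.

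Gadd45b, the member known for rapid induction by cytokines and neuronal activity, was likewise highest in control. It held 2217, 912 and 802 UMIs, with 35.9 CPM (34.4 to 37.4) for control, 11.8 CPM (11.02 to 12.6) for bulk and 10.5 CPM (9.81 to 11.3) in localized electroporation. The electroporated libraries overlapped in their counting intervals and both lay below control. The level was 3.05-fold lower in bulk and 3.41-fold lower in localized electroporation, log2 ratios of -1.53 (-1.64 to -1.43) and -1.68 (-1.79 to -1.57). At equal depth 6.91% of control, 2.86% of bulk and 2.35% of localized cells held a UMI, and without thinning 15.5%, 10.9% and 7.38%. Its level depended on the depth of the cell in control, from 11.6 CPM in cells of 3000 to 6000 UMIs to 62.3 CPM (51.8 to 74.3) above 25000 UMIs, while in bulk the same bins held 7.63 and 13.3 CPM. In localized electroporation it went the other way, from 16.4 CPM (11.7 to 22.4) to 8.98 CPM (6.64 to 11.9). In cells of 3000 to 6000 UMIs the localized level was thus not below control, where the interval was 8.77 to 14.99 CPM and overlapped that of bulk as well, 4.78 to 11.6 CPM, and the lower localized level was seen in the 3 deeper bins.

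Gadd45g, the member linked to cell cycle exit of progenitors, was by far the most abundant and went the other way in bulk electroporation. It held 7658 UMIs in control, 15401 in bulk and 8210 after localized electroporation, or 124 CPM (121 to 127), 199 CPM (196 to 202) and 108 CPM (105 to 110). The bulk level was the highest of the 3 libraries and the localized level the lowest. The log2 ratio was 0.68 (0.64 to 0.72) for bulk over control, 1.60-fold, and -0.20 (-0.24 to -0.16) for localized over control. At equal depth 29.0% of bulk cells held a UMI, against 21.8% in control and 20.7% after localized electroporation, and unthinned 56.1%, 42.8% and 41.6%. Cells with 3 or more Gadd45g UMIs at equal depth made up 5.73% of the bulk library, 3.004% of control and 3.22% of the localized library. In bulk the level went from 157 CPM in cells of 3000 to 6000 UMIs to 258 CPM above 25000 UMIs, and in localized electroporation from 183 to 83.0 CPM, while in control it was 119 and 109 CPM. Cells above 25000 UMIs made up 9.64% of bulk cells, 1.12% of control and 2.75% of localized cells, and the part of depth in the difference was not tested beyond the thinning.

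**Figure D1:**
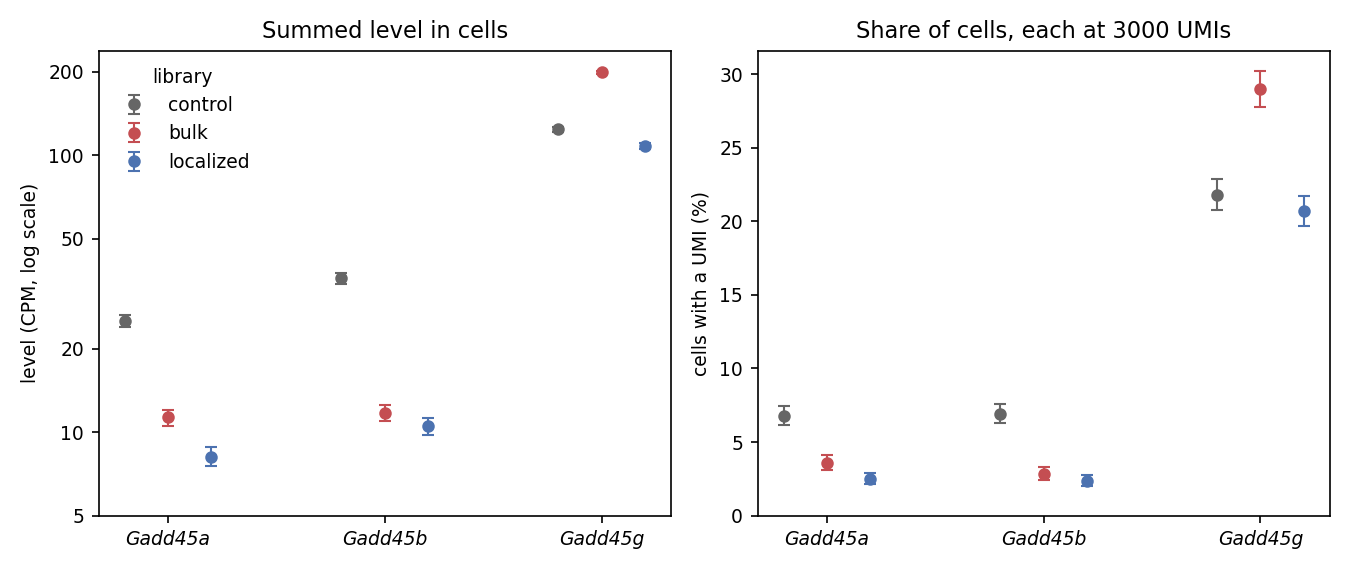
Level of each Gadd45 gene per library (left, CPM on a log axis) and share of cells with a UMI when every cell is thinned to 3000 UMIs (right, percent); points are single libraries and bars are exact 95% counting intervals. Gadd45a and Gadd45b are highest in control, whereas Gadd45g is highest in bulk at 199 CPM and in 29.0% of cells.

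The make-up of the family's transcripts thus differed between libraries. Together the 3 genes held 185 CPM in control, 222 in bulk and 126 after localized electroporation. Gadd45g made up 67.0% of the family's UMIs in control, 89.6% in bulk and 85.2% after localized electroporation. Gadd45b made up 19.4%, 5.31% and 8.32% in the same order. At equal depth 3.74% of control cells held UMIs of 2 members, 2.02% in bulk and 1.27% after localized electroporation, and at most 0.131% of the cells of any library held all 3.

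Free RNA was gauged in barcodes of 10 to 100 UMIs, since no cell type known to lack these genes was in the libraries. There Gadd45g stood at 107, 211 and 113 CPM in control, bulk and localized electroporation, near its level in cells. Gadd45a stood at 14.7, 11.2 and 10.8 CPM and Gadd45b at 13.7, 7.09 and 12.3 CPM. Control cells were thus above these barcodes in both genes, whereas localized cells, at 8.17 and 10.5 CPM, were not. Bulk cells, at 11.3 CPM of Gadd45a, were not above them in that gene. In Gadd45b bulk cells were above, at 11.8 CPM against 7.09 CPM (4.63 to 10.4).

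Differences past 2-fold, here and in the gene lists a log2 ratio of (CPM + 1) of at least 1 in size, were rare among all genes. Of 5810 genes of at least 20 CPM in control or bulk, 0.602% were higher by 2-fold or more in bulk and 0.602% lower by as much, and Gadd45a and Gadd45b were among the lower ones. Of 5906 such genes in control or localized electroporation, 1.22% were higher by 2-fold or more after localized electroporation and 1.02% lower by as much, again with Gadd45a and Gadd45b among the lower ones. With median-of-ratios scaling, higher genes made up 44.4% of those past 2-fold in this comparison in place of 54.5%. The family had been chosen for such differences, so these positions are a description. Gadd45g passed 2-fold in no comparison. Only 27 genes had a lower ratio than Gadd45a in bulk over control and 11 a lower one than Gadd45b, and in localized over control 26 and 15. Between the electroporated libraries, 0.95% of 6002 genes were higher by 2-fold or more in bulk and 0.633% lower by as much. Gadd45g was there 1.84-fold higher in bulk, a log2 ratio of 0.88 (0.84 to 0.92). Gadd45a and Gadd45b, both under 20 CPM in either electroporated library, had log2 ratios of 0.42 (0.29 to 0.56) and 0.15 (0.02 to 0.27), the second of which was -0.11 when each cell weighed the same.

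The cells formed 10 clusters, built without the family and without the 3431 genes whose levels parted by 1.5-fold or more when libraries were compared inside a cluster. Cluster 1 was replicating-like, led by Ccne2, Hist1h1b and Mcm3, and cluster 2 dividing-like, led by Cenpf and Ccnb1. Clusters 3 and 5 were oligodendrocyte precursor-like, led by Pdgfra and Lhfpl3, and cluster 7 was oligodendrocyte-like, led by Mbp and Bcas1. The largest, cluster 0, led by Apoe and Fbxo32, and cluster 4, led by Ccnb2 and Snhg4, stayed unnamed. So did 3 small clusters, 6, 8 and 9, which each had interferon-response genes such as Isg15 among their leading genes.

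Gadd45a was highest in cluster 0 of control, at 37.5 CPM (34.5 to 40.6), and next in the replicating-like cluster at 23.2 CPM (21.1 to 25.5), which overlapped the dividing-like cluster at 20.0 CPM (17.7 to 22.6). The remaining control clusters lay between 15.9 and 19.8 CPM with overlapping intervals. In both electroporated libraries it was lower than in control in all 6 clusters that every library filled with at least 50 cells. The difference was widest in cluster 0, with 13.8 CPM in bulk and 9.33 CPM in localized electroporation, log2 ratios of -1.38 and -1.90. It was narrowest in the oligodendrocyte precursor-like clusters. In cluster 3 control held 18.6 CPM, bulk 10.9 and localized 13.1, and in cluster 5 they held 15.9, 13.5 and 11.2 CPM, where the log2 ratios of -0.22 (-0.73 to 0.29) and -0.47 (-1.02 to 0.07) had intervals that included 0. The oligodendrocyte-like cluster of localized electroporation held 22.7 CPM (14.8 to 33.2), from 69 cells.

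Gadd45b followed a like order over the control clusters, with 51.6 CPM (48.1 to 55.3) in cluster 0, 49.7 CPM (46.6 to 52.97) in the replicating-like cluster, 21.8 CPM in the dividing-like cluster and 20.9 CPM in cluster 4. The first pair did not differ beyond counting error, nor did the second. The oligodendrocyte precursor-like clusters held least, 11.3 CPM in cluster 5 and 5.47 CPM in cluster 3. In the replicating-like cluster the level was 13.9 CPM in bulk and 7.44 CPM in localized electroporation, log2 ratios of -1.76 (-1.94 to -1.59) and -2.59 (-2.80 to -2.38). In cluster 0 the order of the electroporated libraries in CPM was the opposite, 17.4 CPM in bulk and 22.8 CPM in localized electroporation. The share of cluster 0 cells with a Gadd45b UMI at equal depth did not follow that order. Bulk cells had a share of 4.52% and localized cells one of 3.67%, with overlapping intervals. Cluster 0 also held 5 of the 6 localized cells of 10 or more Gadd45b UMIs, whose part in its level was not tested. In cluster 3 no difference was detectable at this depth, with 7.98 CPM in bulk, 5.28 in localized electroporation and 22 UMIs in control.

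The ratios of Gadd45g over control differed in direction between clusters in localized electroporation. In cluster 0 it stood at 122 CPM (116 to 127) for control, 242 CPM (235 to 250) for bulk and 117 CPM (113 to 122) after localized electroporation. In the dividing-like cluster the 3 libraries held 108, 105 and 85.5 CPM, and bulk and control overlapped. In the replicating-like cluster they held 150, 159 and 94.2 CPM, so that localized electroporation lay below both, with a log2 ratio over control of -0.67 (-0.75 to -0.59). The oligodendrocyte precursor-like clusters went another way. In cluster 3 control held 85.5 CPM (76.7 to 95.03), bulk 168 CPM (155 to 182) and localized 167 CPM (157 to 178), log2 ratios over control of 0.97 and 0.96. In cluster 5 the levels were 87.2, 115 and 134 CPM, log2 ratios of 0.40 and 0.61. In localized electroporation, then, Gadd45g was higher than control in clusters 3 and 5 and lower in the replicating-like and dividing-like clusters. This does not set precursor-like cells against dividing cells, since cluster 5 was also high in markers of division and replication. Their median log2 ratios over the remaining cells were 0.99 and 0.68 in cluster 5, against -3.23 and -1.20 in cluster 3. The 687 cells of cluster 3 had a median depth of 6998 UMIs in localized electroporation, and the 718 control cells one of 4839 UMIs. At equal depth the shares with a Gadd45g UMI were 18.7% in control, 28.6% in bulk and 28.7% after localized electroporation.

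**Figure D2:**
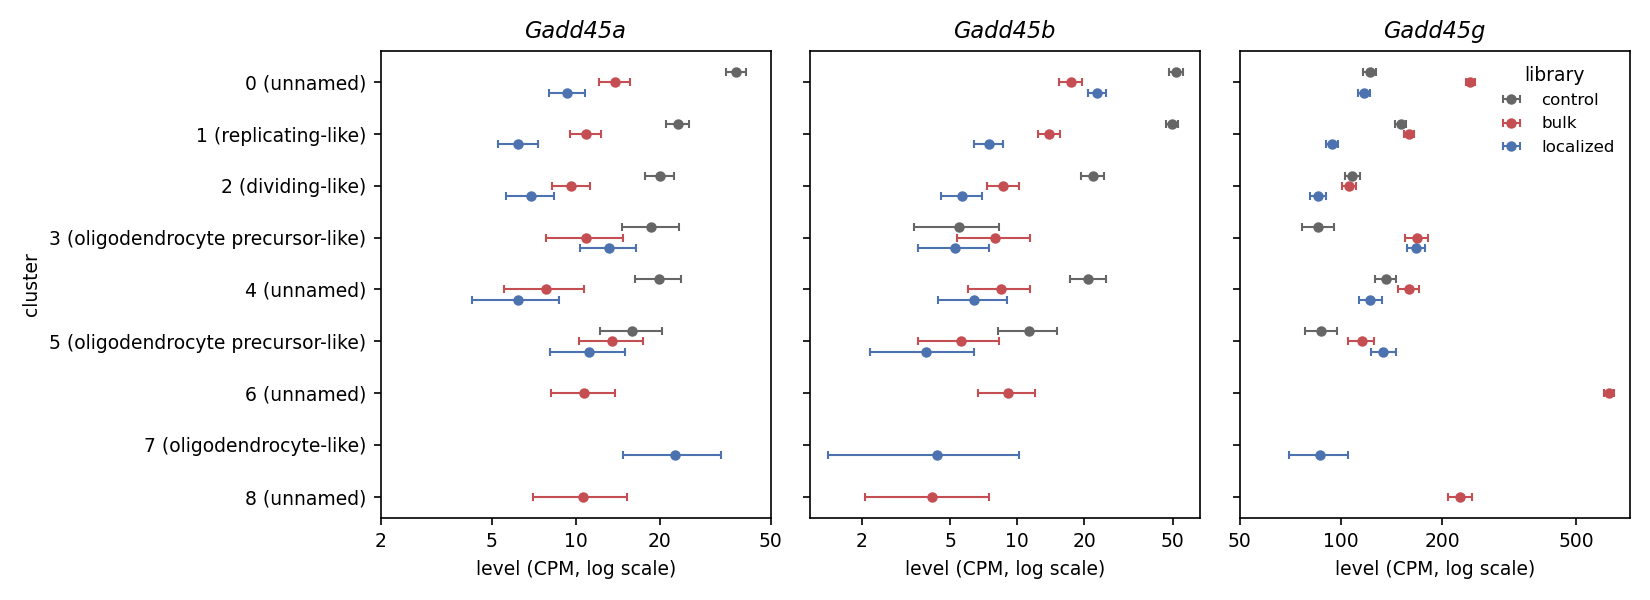
Level of each Gadd45 gene (CPM, log axis) by cluster, with control in grey, bulk in red and localized electroporation in blue; bars are exact 95% Poisson intervals, and clusters of under 50 cells in a library are not drawn. Gadd45g in cluster 6 of bulk stands apart at 624 CPM, and in cluster 3 both electroporated libraries lie above control.

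The highest Gadd45g level of any cluster, 624 CPM (603 to 645), was in cluster 6, of which 228 of 238 cells came from bulk electroporation. Its leading genes were Ifit1, Rsad2 and Ifit3, antiviral genes switched on by interferon. At equal depth 63.2% (56.5 to 69.4) of its bulk cells held a Gadd45g UMI. Gadd45a and Gadd45b were not high there, at 10.7 and 9.05 CPM. Cluster 8, with 116 bulk cells, held 225 CPM of Gadd45g. The genes most like Gadd45g over the 21 sums of a cluster in a library, by Pearson r of log2(CPM + 1), were Ifit3 at 0.86, Ifit1 at 0.80, Rsad2 at 0.80, Rtp4 at 0.78 and Oasl2 at 0.78. Without the sums of clusters 6 and 8, r was between 0.45 and 0.56 over 19 sums. These sums share libraries and depth.

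To describe this in single cells, bulk cells were ordered by their summed UMIs of Ifit1, Isg15, Rsad2 and Cxcl10 at equal depth, a set chosen after the values were seen. The Gadd45g level was 134 CPM (127 to 141) in 3668 cells with none of these UMIs, 166 CPM (151 to 182) in 886 cells with 1 to 2, 248 CPM (226 to 273) in 597 cells with 3 to 9 and 532 CPM (490 to 576) in 380 cells with 10 or more. Each step lay above the one before. The share of cells with a Gadd45g UMI went from 24.6% to 30.4%, 33.8% and 60.3%. The 380 cells were 6.87% of bulk cells and held 20.5% of its Gadd45g UMIs. Gadd45a, at 13.0, 9.03, 16.2 and 14.9 CPM, had no such order. Gadd45b, at 9.91, 13.5, 14.0 and 14.9 CPM, also went up from bin to bin, but by less than the counting error, with overlapping intervals from the first bin to the last.

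**Figure D3:**
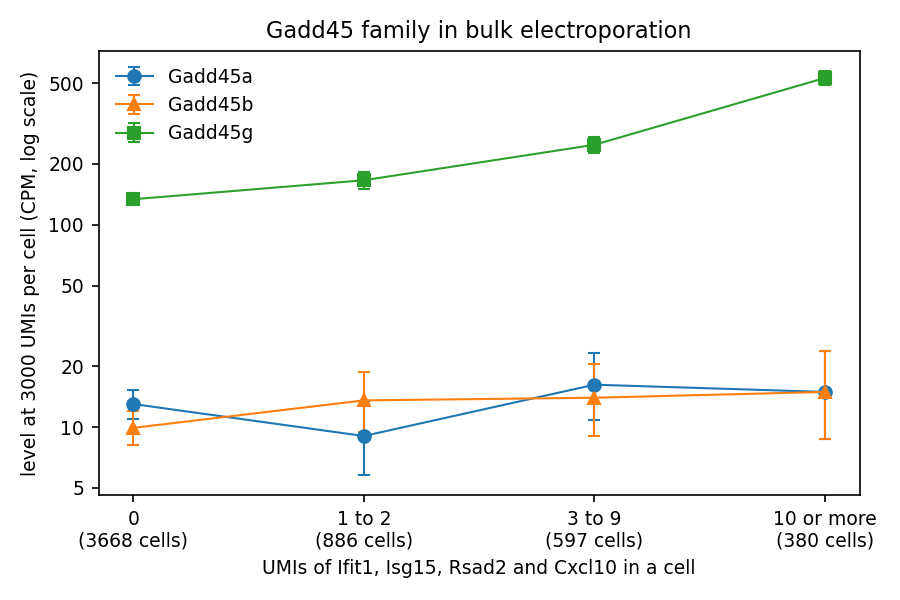
Level of the Gadd45 genes in bulk electroporation (CPM, log axis, every cell thinned to 3000 UMIs) over cells grouped by their UMIs of 4 interferon-response genes; bars are exact 95% Poisson intervals. Gadd45g goes from 134 to 532 CPM over the bins, while Gadd45a and Gadd45b stay between 9.03 and 16.2 CPM.

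The last bin lay above the first in cells of each depth. In bulk cells of 3000 to 12000 UMIs, Gadd45g stood at 138 CPM with none of these UMIs and 522 CPM with 10 or more, in cells of 12000 to 25000 UMIs at 123 and 548 CPM, and above 25000 UMIs at 157 and 511 CPM. Within clusters it varied. Bulk cells with 3 or more of these UMIs held 401 CPM (356 to 451) in cluster 0 against 198 CPM (182 to 215) in cells with none, and 284 CPM (246 to 325) against 97.9 CPM (86.0 to 111) in the replicating-like cluster. In the dividing-like cluster the values were 120 CPM (89.9 to 158) and 96.7 CPM (82.7 to 112), whose intervals overlapped.

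Cells without these UMIs also differed between libraries. Over all clusters, at equal depth, Gadd45g stood at 134 CPM in such bulk cells, 118 CPM (113 to 123) in control cells and 117 CPM (112 to 122) in localized cells. The log2 ratios were 0.18 for bulk over control, -0.011 for localized over control and 0.19 for bulk over localized. The ratios of 0.68, -0.20 and 0.88 given for all cells are not a like measure, since they sum full counts and deep cells weigh more. With each cell weighted the same, the ratios over all cells were 0.56, -0.10 and 0.66. Without the 3 clusters that had at least 3 interferon-response genes among their 10 leading genes, the ratio of full counts for bulk over control was 0.41. In cluster 0 such cells held 198 CPM in bulk and 116 CPM (107 to 127) in control, and in cluster 3 they held 153 CPM (134 to 174) and 83.2 CPM (71.5 to 96.3). In the replicating-like cluster bulk, at 97.9 CPM, lay below control, at 148 CPM (137 to 159). Control held 51 cells with such UMIs and localized electroporation 70, too few for the same bins. The 51 control cells held 353 CPM of Gadd45g (265 to 461) and the 70 localized cells 190 CPM (136 to 259). Both lay above the cells of the same library without these UMIs. Of the 51 control cells 31.4% (19.1 to 45.9) held a Gadd45g UMI, against 21.7% (20.7 to 22.8) of those without, and the intervals overlapped. Of the 70 localized cells 32.9% (22.1 to 45.1) did, against 20.6% (19.6 to 21.6). The control level, from 54 UMIs, can thus rest on few cells, which its interval does not cover. The 70 localized cells held 157 CPM of Gadd45b (108 to 221), against 10.6 CPM in localized cells without these UMIs. This value rests on few cells, which its interval does not cover. Of its 33 UMIs, 29 lay in the 10 cells with 3 to 9 interferon-response UMIs, 30% of which held Gadd45b. A Gadd45b UMI was found in 8.57% (3.21 to 17.7) of the 70 cells, against 2.28% (1.92 to 2.68) of those without.

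Gadd45b was concentrated in few cells after localized electroporation. There 6 of 6298 cells had 10 or more Gadd45b UMIs, and they held 22.7% of all its UMIs, the richest cell 63 of them. In control 30 cells held 18.2% and in bulk 6 cells held 10.2%. The 6 localized cells, of which 5 were in cluster 0, were also rich in other stress genes. Atf3, a stress-induced transcription factor, stood at 956 CPM (736 to 1220) in them and at 4.55 CPM in the remaining cells, and 5 of the 6 held it. Ddit3, which encodes Chop, stood at 911 and 18.9 CPM, and Jun, a part of AP-1, at 1822 and 196 CPM. In the 30 control cells Atf3 stood at 322 CPM (274 to 377) and 57.3 CPM in the rest. Gadd45g was spread more widely, with 406 bulk cells of 10 or more UMIs that held 51.9% of its UMIs. In control 135 such cells held 28.6% and in localized electroporation 144 held 25.3%. This limit was set on full counts, and depth differed. These cells had median depths of 21557.5 UMIs in bulk, 13006 in control and 13259 in localized electroporation. At equal depth the richest 10% of cells held 61.1% of Gadd45g UMIs in bulk, 67.1% in control and 69.7% after localized electroporation.

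Co-detection with 25 genes was described for each member at equal depth over all cells. In control, Gadd45a and Gadd45b were both found more often beside the stress genes Ddit3, Gdf15 and Atf3, but not alike beside Trib3 and Ppp1r15a. With a Ddit3 UMI, Gadd45a was found in 10.0% of control cells and Gadd45b in 9.30%, against 4.82% and 5.47% without. With a Gdf15 UMI the shares were 10.2% and 10.3%, against 5.94% and 6.09% without. Gadd45a was found in 12.03% of control cells with an Atf3 UMI and 6.05% without, and in 13.0% with a Trib3 UMI and 6.15% without. Gadd45b was found in 16.6% (14.0 to 19.5) of control cells with an Atf3 UMI and 5.57% without, and in localized electroporation in 19.4% (11.1 to 30.5) of the 72 cells with Atf3 and 2.15% without. In bulk it was found in 3.64% of cells with Cdkn1a and 0.937% without. Gadd45g was found in 33.7% of control cells with a Gadd45b UMI and 20.9% without, while Gadd45a showed no such excess beside either relative in control, with 5.94% and 6.84% for Gadd45b. Gadd45g was also found more often beside Dll1, a Notch ligand of differentiating progenitors, in each library. The share was 31.0% (25.6 to 36.9) of control cells with Dll1, against 21.4% (20.3 to 22.5) without. In bulk it was 40.9% (35.1 to 46.9) against 28.3% (27.1 to 29.6), and in localized electroporation 41.8% (37.5 to 46.1) against 18.8%.

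The genes that Gadd45 proteins act on were set beside all genes. Lists took members that reached 5 CPM in a compared library and had been compiled with earlier results of these data known. Over all genes of at least 5 CPM, the shares higher and lower by 2-fold or more were 0.951% and 0.579% in bulk over control. They were 1.62% and 0.91% in localized over control, and 1.07% and 0.861% in bulk over localized. Median log2 ratios over all genes were 0.10, 0.13 and -0.03. With shares this small, short lists with no gene past 2-fold lie near the background and give no result about their members. None of the 11 binding partners passed 2-fold in any comparison. Cdkn1a, the abundant p53-induced p21 gene, stood at 564 CPM in control, 773 in bulk and 419 after localized electroporation, and Mapk14, which encodes p38 alpha, at 13.5, 22.5 and 18.2 CPM. None of 12 measured kinases of the p38 and JNK pathways passed 2-fold on the log2(CPM + 1) scale. Among them Map2k3, which activates p38, stood at 9.52 CPM in control and 19.6 CPM in bulk, a log2 ratio of 0.97, just under that limit although the plain CPM ratio was above it. None of 10 genes of entry into mitosis passed 2-fold, where Ccnb1, the cyclin partner of Cdk1, stood at 120, 126 and 93.6 CPM. In bulk over localized 9 of these had ratios above 0 and 1 below, with a median of 0.35. None of 13 genes of excision repair and demethylation passed 2-fold. Tet1, which oxidizes methylated cytosine, had log2 ratios of 0.35 and 0.60 over control, and Apex1, an abasic site nuclease, one of -0.60 in bulk over localized electroporation.

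Among genes upstream of the family, 3 stress factors differed more. Of 17 measured upstream factors, 2 were at least 2-fold lower in bulk and 3 after localized electroporation, while the median was 0.08 in both, not above that of all genes. These were Ddit3, with 217 CPM in control, 48.7 in bulk and 19.7 after localized electroporation, Atf3, with 59.4, 20.5 and 5.38 CPM, and, in localized electroporation, Atf4, the main factor of the amino acid and stress response, with 327, 177 and 104 CPM. Trp53 itself stood at 77.0, 85.8 and 83.1 CPM. Of 13 Atf4 and Chop targets, 5 were at least 2-fold lower in bulk and 11 after localized electroporation, with medians of -0.83 and -1.57. In bulk over localized all 13 were higher and 8 at least 2-fold, with a median of 1.20. Chac1, a glutathione-degrading enzyme, stood at 71.9, 14.8 and 1.80 CPM, and Trib3, a pseudokinase, at 37.0, 8.56 and 1.05 CPM. Gadd45a had the same order of libraries as Chac1 and Trib3, from control through bulk to localized electroporation. Not all of the 13 targets had it. Vldlr stood at 55.2, 58.9 and 25.1 CPM, with bulk above control. Stc2 stood at 17.6, 6.19 and 6.04 CPM, and its log2 ratio of bulk over localized, 0.03 (-0.13 to 0.19), had an interval that included 0.

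As a set the p53 targets did not share that order. In bulk over control 19 had ratios above 0 and 4 below. Those 4, Gdf15 and Sesn2 among them, did have the order of Gadd45a. Of 23 measured, 1 was at least 2-fold higher and 1 lower in bulk, and 1 higher and 2 lower in localized electroporation, with medians of 0.29 and -0.24. Trp53inp1 stood at 29.3 CPM in control and 63.9 in bulk. Those at least 2-fold lower were Gdf15, with 119, 29.4 and 11.2 CPM, and Sesn2, with 64.3, 49.6 and 17.1 CPM. Sesn2 was past 2-fold against control in localized electroporation alone, and both are also known as Atf4 targets. Btg2, an antiproliferative gene, was the one at least 2-fold higher in localized electroporation, with 145 CPM against 67.2 in control. In bulk over localized 20 p53 targets had ratios above 0 and 3 below, with a median of 0.37. Sesn2, Bbc3, Gdf15 and Eda2r were at least 2-fold higher there.

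Early-response genes, the class to which Gadd45b belongs, parted between the electroporated libraries. In bulk 2 of 11 were at least 2-fold lower than control, Atf3 and Klf4, with a median of -0.58. In localized electroporation 5 of 13 were at least 2-fold higher and the same pair lower, with a median of 0.22. Fos stood at 23.3 CPM in control, 18.9 in bulk and 71.5 after localized electroporation, and Fosb at 1.39, 0.852 and 10.7 CPM, while Klf4 stood at 50.02, 23.9 and 9.32 CPM. In bulk over localized 2 were at least 2-fold higher and 5 lower. Gadd45b, at 35.9, 11.8 and 10.5 CPM, lay below control in both, as Atf3 and Klf4 did, whereas Fos was above control after localized electroporation. The order of the electroporated libraries in Gadd45b was not settled. Its log2 ratio of bulk over localized was 0.15, and -0.11 when each cell weighed the same. Of 12 NF-kB targets 5 were measured, of which Relb, an NF-kB subunit, was at least 2-fold higher in bulk, at 11.1 CPM against 5.03 in control and 4.61 in localized electroporation. Nfkbia stood at 31.9, 37.8 and 41.5 CPM.

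Of 12 genes of neurogenic progenitors, the company in which Gadd45g is known, 5 were measured, and all 5 had ratios above 0 in both comparisons with control. The rest of the list, among them Neurog2, Neurod1 and Dcx, stayed under 5 CPM in every library. In bulk none of the 5 passed 2-fold. In localized electroporation 2 did on the log2(CPM + 1) scale, Btg2 and Dll3, and the median was 0.98. Btg2 was also on the lists of p53 targets and early-response genes. Dll3 was also among the 10 leading genes of the oligodendrocyte precursor-like cluster 3. Dll3 stood at 11.9 CPM in control, 12.2 in bulk and 25.4 after localized electroporation, and Dll1 at 14.4, 15.4 and 29.2 CPM, whose localized level passed 2-fold over control as a plain CPM ratio only. Gadd45g was lowest in the library where Dll1 and Dll3 were highest, although cells with Dll1 held it more often in each library. Among 8 genes of mRNA-binding proteins that act on short-lived transcripts, Zfp36 alone passed 2-fold, with 3.95, 3.02 and 10.9 CPM.

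**Figure D4:**
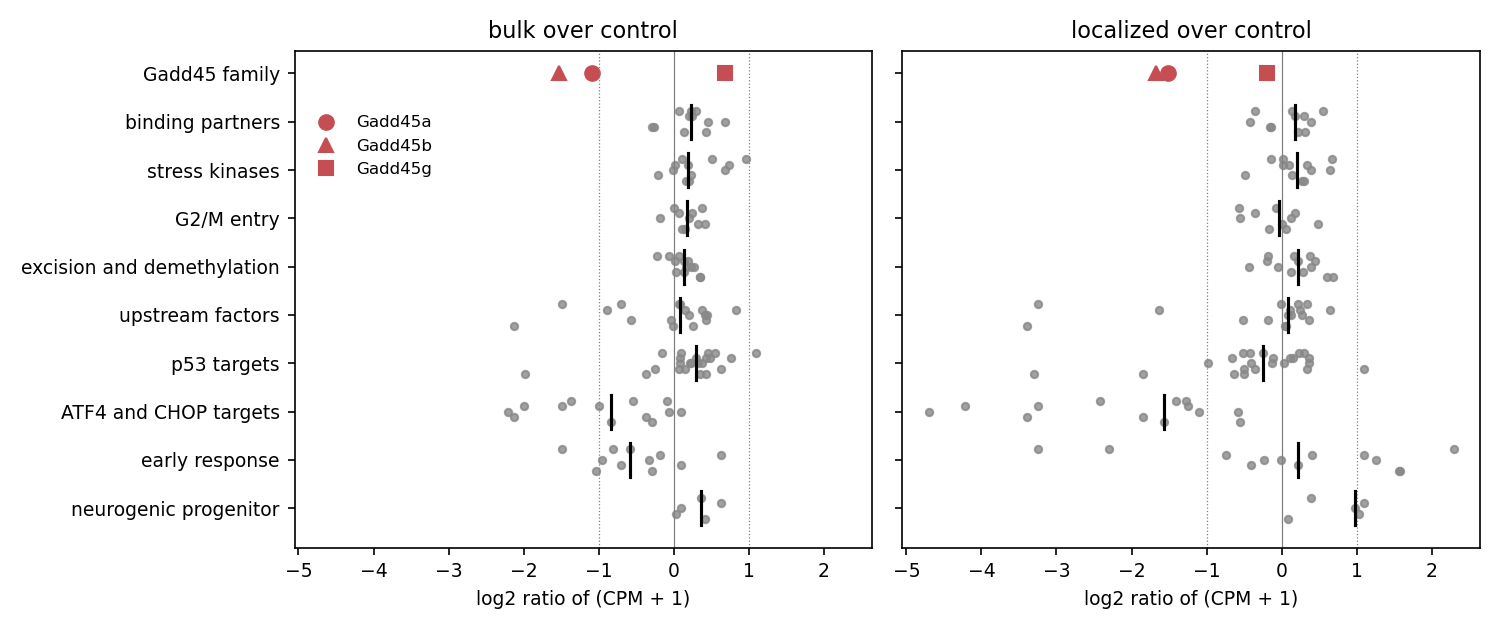
Log2 ratios of (CPM + 1) over control for the Gadd45 genes (red) and for the members of 9 gene lists of at least 5 CPM (grey points, black bars at list medians), with dotted lines at 2-fold; the left panel is bulk and the right panel localized electroporation. Gadd45a and Gadd45b lie at -1.09 and -1.53 in bulk, on the side of the Atf4 and Chop targets, whereas binding partners and kinases stay within 2-fold, as nearly all genes do.

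The genes most like the other members over the 21 sums also differed. Those of Gadd45a were Fam13c at 0.83, Nfil3 at 0.82, Herpud1, a gene of the endoplasmic reticulum stress response, at 0.81, Chd2 at 0.80 and Eps8 at 0.77. Those of Gadd45b were Mrps35 at 0.86, Dnajc1 at 0.85, Capzb at 0.85, Slc25a33 at 0.84 and Atp5b at 0.84. Nfil3 stood at 50.5 CPM in control, 12.7 in bulk and 8.97 after localized electroporation, and Herpud1 at 50.7, 23.1 and 17.0 CPM. Among the members themselves r was 0.54 between Gadd45a and Gadd45b, -0.10 between Gadd45a and Gadd45g and 0.06 between Gadd45b and Gadd45g.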

How the data were processed

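Neural progenitors of 3 groups were profiled by droplet sequencing of transcript 3' ends, with 10000 cells loaded per group. The authors deposited whole UMI counts per gene and barcode. The submitters' processing notes list GRCm38, Cell Ranger 6 and Seurat 4.0.4; per the file headers the matrices were written by Cell Ranger 4. Barcodes were kept as cells by the stated limits, and doublets were not removed. UMIs were summed over cells, so deep cells weigh more, and scaled to CPM. Ratios used a pseudocount of 1 CPM, which understates those of low genes. Levels compare libraries; levels of different genes come from 3' counts. Thinning drew 3000 UMIs from each cell without replacement and left out no cell. Cells were clustered with scanpy 1.11.5 and leidenalg 0.10.2 (2000 variable genes, 30 principal components, 15 neighbours, resolution 0.5). Clusters were named from marker lists where at least 2 markers were among the 10 leading genes and at least 3 were detected. That minimum of 2 was set after the first names were seen.

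The members and the 11 gene lists were chosen with earlier results of these data known. Named genes were the members, up to 4 genes per list and comparison with the largest ratios, and the 5 genes most like each member, without predicted, Riken, ribosomal protein and mitochondrial genes. Trp53, Isg15, Cxcl10, Jun, Vldlr, Stc2, Ppp1r15a, Neurog2, Neurod1, Dcx and the cluster-leading genes lie outside this rule. The interferon bins and the limit of 10 UMIs were set after the values were seen. The ratio step was tested on simulated data. Python 3.11.15, R 4.3.3 and edgeR 4.0.16 (TMM factors only) were used. Promoters come from RefSeq, and all 3 members matched. Some genes that the rule takes are not reported here.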

Additional observations from a re-analysis of the deposited data

Results flagged for a closer look

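Gadd45g had a log2 ratio of 0.68 for bulk over control but -0.20 for localized over control, opposite directions whose counting intervals lie on either side of 0. The difference was not tested. Within localized over control, Gadd45g had a log2 ratio of -0.67 in the replicating-like cluster 1 and 0.96 in the oligodendrocyte precursor-like cluster 3, and this difference was not tested either. In bulk over localized, Gadd45g had 1.04 in cluster 0 and -0.21 in cluster 5, and Gadd45b had -0.37 in cluster 0 and 0.82 in cluster 1. These differences were not tested, since each group is 1 library. The Gadd45b value of cluster 0 includes 5 of the 6 localized cells of 10 or more Gadd45b UMIs.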

How the results depend on the processing

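With 1 library per group, no leave-one-out value exists, and counting error is the only error known. No paired analysis was possible because each group has a single replicate. Over 13 other settings per ratio no ratio over control changed sign. In the largest cluster alone, Gadd45a had -1.38 in bulk and -1.90 in localized over control, Gadd45b had -1.14 in localized over control and -0.37 in bulk over localized, and Gadd45g had 0.99, -0.051 and 1.04 in the 3 comparisons. Settings added after the values were seen moved Gadd45g most. In thinned cells without an interferon-response UMI it had 0.18, -0.011 and 0.19, Gadd45a had -0.91 in bulk, and Gadd45b had -1.50 in localized over control and -0.089 in bulk over localized. Without the interferon-led clusters Gadd45g had 0.41 over control and 0.61 over localized electroporation. With each cell weighted the same, Gadd45g had 0.56, -0.10 and 0.66, and Gadd45b had -1.42, -1.31 and -0.11. The last of these turned sign, as it did in the largest cluster and in thinned cells without an interferon-response UMI. Without the interferon-led clusters Gadd45b kept its sign in bulk over localized, at 0.20. In cells of 6000 to 20000 UMIs Gadd45b had -1.65 in bulk and Gadd45g 0.50 over control and 0.70 over localized electroporation, which was 0.92 with a minimum of 6000 UMIs. Median-of-ratios scaling gave Gadd45g 0.62 and -0.27 over control, and TMM 0.61 and -0.29. A pseudocount of 5 CPM gave Gadd45a -0.89 and -1.20 and Gadd45b -1.29 and -1.40.

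Shares of cells follow the depth. At 6000 UMIs per cell, with 1053 control, 608 bulk and 493 localized cells left out, Gadd45a was found in 12.7%, 6.42% and 4.69%, Gadd45b was found in 11.9%, 5.38% and 4.03% and Gadd45g was found in 34.02%, 44.04% and 29.99% of control, bulk and localized cells. Unthinned, Gadd45a in 19.0%, 12.9% and 8.78%, Gadd45b in 15.5%, 10.9% and 7.38% and Gadd45g in 42.8%, 56.1% and 41.6%. The order of the libraries for each member was the same. Counts of genes past 2-fold follow the minimum. For bulk over control, higher genes numbered 35 at 20 CPM, 92 at 5 CPM and 134 with no minimum. For bulk over control, lower genes numbered 35 at 20 CPM, 56 at 5 CPM and 59 with no minimum. For localized over control, higher genes numbered 72 at 20 CPM, 158 at 5 CPM and 211 with no minimum. For localized over control, lower genes numbered 60 at 20 CPM, 89 at 5 CPM and 112 with no minimum. For bulk over localized, higher genes numbered 57 at 20 CPM, 106 at 5 CPM and 145 with no minimum. For bulk over localized, lower genes numbered 38 at 20 CPM, 85 at 5 CPM and 103 with no minimum. All listed alternatives were run.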
